A study of Homo sapiens with 9 samples.

Results

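The genes described here are the matrix metalloproteases (MMPs), the ADAM and ADAMTS proteases and the tissue inhibitors of metalloproteases (TIMPs) of U87 cells, a human glioblastoma line. They were chosen by symbol and biotype from the deposited gene count table, as protein-coding genes named MMP, ADAM or ADAMTS plus a number, or TIMP1 to TIMP4. This gave 65 of 58735 genes, namely 22 MMPs, 20 ADAMs, 19 ADAMTS genes and 4 TIMPs. Symbols that carry a further letter, such as MMP23B or the ADAMTSL genes, were outside the rule. Bulk RNA sequencing covered 9 libraries, 3 for each of 3 groups of cells with stable expression. One group expressed IDH1mt C269S, which is the R132H mutant of isocitrate dehydrogenase 1 with a cysteine replaced by serine, and is called C269S here. Another expressed the R132H mutant alone (IDH1mt), and the control group carried the PCDH vector, whose name is unrelated to the protocadherin genes. The design concerns gene expression under self-palmitoylation of mutant IDH1. No group expressed introduced IDH1 without the R132H change.

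MMPs, ADAMs and ADAMTS proteases are zinc-dependent enzymes of the metzincin class, made as inactive precursors whose pro-domain must be released. MMPs cut collagens and other matrix proteins, the ADAMTS enzymes are secreted and cut proteoglycans and procollagens, and most ADAMs sit in the cell membrane, where they shed the outer parts of growth factors, receptors and adhesion proteins. TIMPs bind the active site and block these enzymes, and TIMP2 also helps the membrane protease MMP14 to activate the MMP2 precursor. In glioblastoma the families are known for matrix remodelling at the invading edge.

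Of the 65 genes, 46 had enough reads for testing. The 19 others had at most 8 counts in any library. Of these, ADAM2, ADAM29, ADAM30, ADAMTS10, ADAMTS19, MMP20, MMP26 and MMP27 had 0 counts in all 9 libraries, which allows up to 3 counts in a library or 0.121 to 0.157 CPM (counts scaled to library size), by counting error alone. ADAM7, ADAM18, ADAM20, ADAM33, ADAMTS8, ADAMTS15, ADAMTS17, ADAMTS20, MMP13, MMP21 and MMP28 had a few. Levels between genes were compared per length, in the deposited FPKM (fragments scaled to gene length and library size), as means over the 9 libraries. A few genes dominated: TIMP1 stood highest at 1718 FPKM, followed by MMP3, stromelysin 1, at 811 FPKM, MMP2, gelatinase A, at 651 FPKM, the membrane-bound MMP14 at 209 FPKM and TIMP3, a TIMP bound to the matrix, at 158 FPKM. The highest ADAM was ADAM9 at 61.2 FPKM and the highest ADAMTS gene was ADAMTS1 at 20.3 FPKM. MMP9, gelatinase B, reached a mean of 2.4 FPKM, and 35 genes had a mean of at least 1 FPKM. Together the 65 genes took 1.20 ± 0.0289% of all counts in C269S, 1.06 ± 0.00879% in IDH1mt and 1.17 ± 0.0119% in PCDH (SD, n = 3 each).

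**Figure D1:**
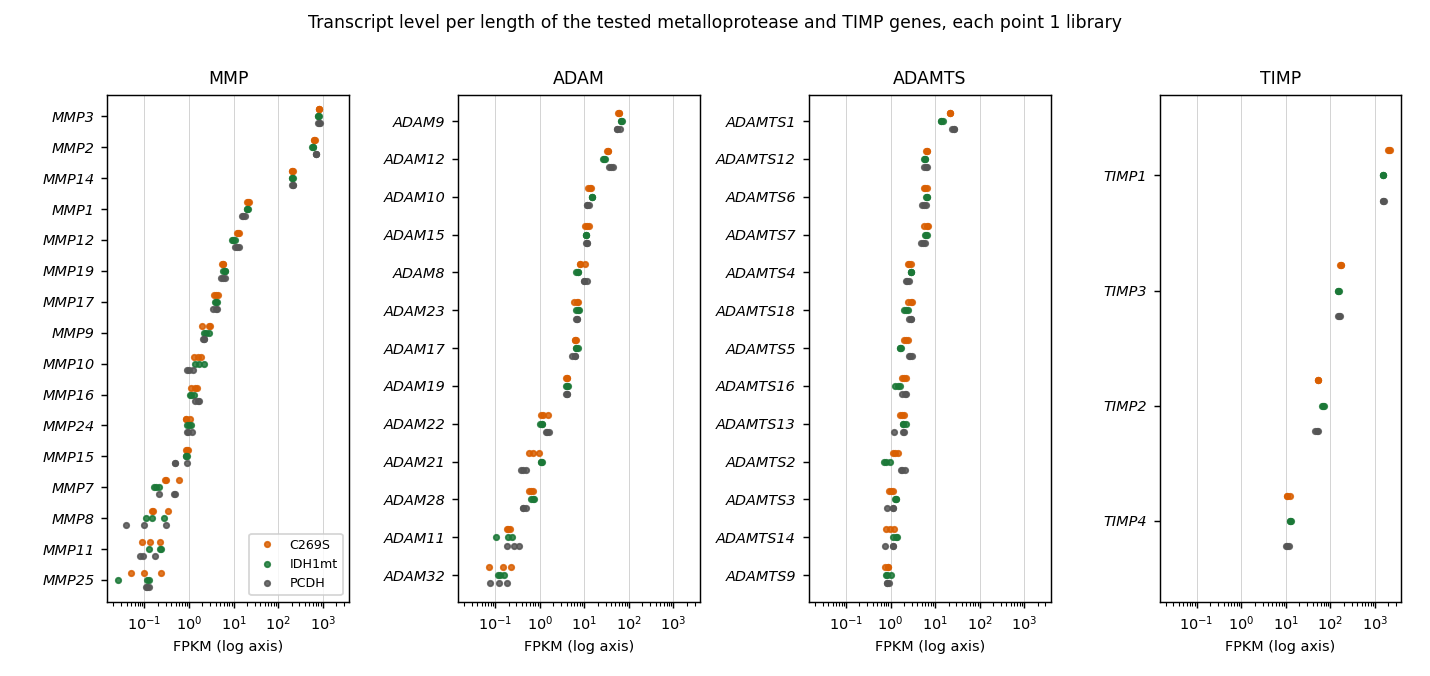
Level of each tested gene in FPKM on a log axis, 1 panel per family, with 1 point per library and the groups C269S, IDH1mt and PCDH in separate colours. TIMP1, MMP3, MMP2, MMP14 and TIMP3 lie above 100 FPKM in the mean.

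The windows before the RefSeq starts of 5 genes called below are shown because AP-1 is a known regulator of MMP and TIMP genes, and cores of the hypoxia site and the TATA box were searched with it. RefSeq windows (build GRCh38.p14) were at hand for 38 of the 65 genes, among them TIMP1, TIMP3, ADAM12, ADAMTS2 and ADAM10. The 27 genes without a window include MMP1, MMP2, MMP3, TIMP2, ADAMTS1 and ADAMTS5, which were therefore not searched. Each line runs 5′ to 3′ over the 250 bases that end at the base before the RefSeq start, and capitals mark matches on either strand to TGANTCA (AP-1), TGAGTAA (an AP-1 variant), ACGTG or GCGTG (cores of the site bound by hypoxia-inducible factors) and TATAAA (the TATA box). The windows are chrX:47582186-47582435 (+ strand) for TIMP1, chr22:32801455-32801704 (+ strand) for TIMP3, chr10:126388478-126388727 (- strand) for ADAM12, chr5:179345462-179345711 (- strand) for ADAMTS2 and chr15:58749708-58749957 (- strand) for ADAM10.
TIMP1: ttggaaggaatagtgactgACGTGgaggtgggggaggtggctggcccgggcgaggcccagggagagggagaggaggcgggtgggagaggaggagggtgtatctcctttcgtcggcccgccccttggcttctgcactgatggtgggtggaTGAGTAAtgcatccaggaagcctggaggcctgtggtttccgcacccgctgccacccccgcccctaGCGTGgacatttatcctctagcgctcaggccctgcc
TIMP3: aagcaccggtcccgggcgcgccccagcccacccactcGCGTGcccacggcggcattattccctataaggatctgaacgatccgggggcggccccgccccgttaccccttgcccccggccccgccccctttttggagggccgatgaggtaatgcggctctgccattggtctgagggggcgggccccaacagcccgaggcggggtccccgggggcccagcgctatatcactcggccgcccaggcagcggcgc
ADAM12: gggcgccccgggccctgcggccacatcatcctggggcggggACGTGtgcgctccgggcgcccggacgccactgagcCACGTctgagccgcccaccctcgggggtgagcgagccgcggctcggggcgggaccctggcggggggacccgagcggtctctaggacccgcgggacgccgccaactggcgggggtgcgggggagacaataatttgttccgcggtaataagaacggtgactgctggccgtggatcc
ADAMTS2: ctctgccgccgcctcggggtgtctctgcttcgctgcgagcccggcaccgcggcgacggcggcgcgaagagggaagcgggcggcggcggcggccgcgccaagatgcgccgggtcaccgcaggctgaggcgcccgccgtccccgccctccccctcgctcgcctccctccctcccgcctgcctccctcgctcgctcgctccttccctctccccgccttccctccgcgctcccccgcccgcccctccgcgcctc
ADAM10: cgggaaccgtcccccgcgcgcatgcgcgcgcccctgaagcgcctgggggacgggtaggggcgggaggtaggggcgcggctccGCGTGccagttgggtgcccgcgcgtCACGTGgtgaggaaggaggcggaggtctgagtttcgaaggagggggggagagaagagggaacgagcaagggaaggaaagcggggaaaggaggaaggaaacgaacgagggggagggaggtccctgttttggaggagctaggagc

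In the TIMP1 window TGAGTAA began 101 bases before the RefSeq start, ACGTG 231 and GCGTG 36 bases before it. The RefSeq starts of the windows shown differ from the gene starts used for the counts. The ADAM10 window lies wholly inside the counted ADAM10 gene (58588807 to 58749978). The counted TIMP1 gene starts at 47582313, inside its window, so TGAGTAA and GCGTG fall within the counted gene. TGAGTAA occurred in 2.21% of all 35116 windows and in 1 of the 38, that of TIMP1. TGANTCA occurred in 6.57% of all windows and in 4 of the 38, those of ADAMTS12, MMP7, MMP10 and MMP20, of which MMP7, MMP10 and MMP20 also held TATAAA (10.7% of all windows and 7 of the 38). ACGTG was found in 18.5% of all windows and 13 of the 38, and GCGTG in 32.2% and 12. In the ADAM10 window ACGTG lay on both strands of the same site, so these matches overlap. The ADAMTS2 window, with 80.0% G or C, held none of the 5 motifs. A match is only a run of letters and says nothing on binding.

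Per library, total counts lay between 19108925 and 24803711. IDH1, the introduced gene, stood at 739 ± 30.3 CPM in C269S, 677 ± 16.5 CPM in IDH1mt and 111 ± 7.97 CPM in PCDH (SD, n = 3 each), so its level checks the label of PCDH but cannot tell the C269S allele from IDH1mt. Of the glioma and astrocyte markers, VIM and CD44 were abundant, VIM being called lower and CD44 higher in IDH1mt against PCDH, GFAP averaged 3.11, 4.01 and 3.49 CPM in C269S, IDH1mt and PCDH, and AQP4 had 0 counts. The summed level of 4 microglia and macrophage markers was 2.0 to 2.5 FPKM in C269S, 2.81 to 3.39 FPKM in IDH1mt and 1.44 to 1.97 FPKM in PCDH. CSF1R was called higher in IDH1mt against PCDH and lower in C269S against IDH1mt, the latter call being lost with limma on FPKM. PTPRC, AIF1 and CX3CR1 averaged at most 0.181 CPM in any group. The sum of 4 endothelial markers was 2.87 to 3.08 FPKM in C269S, 2.42 to 2.63 FPKM in IDH1mt and 3.23 to 3.41 FPKM in PCDH. Of the 3 that were tested, KDR was called lower in IDH1mt against PCDH and higher in C269S against IDH1mt, while the median log2 fold change of the 3 in IDH1mt against PCDH was 0.25. The neuronal marker SNAP25 was called higher in IDH1mt against PCDH, 1 of 4 tested neuron markers, or 0 with limma on FPKM. Summed mesenchymal markers reached 1077 to 1088 FPKM in C269S, 860 to 964 FPKM in IDH1mt and 917 to 970 FPKM in PCDH. Of the 3 tested, FN1 was called higher and COL1A1 and COL1A2 lower in both constructs against PCDH. All 3 were called higher in C269S against IDH1mt, or 1 with limma on FPKM. Of all genes, 14.1%, 1.42% and 4.9% were called in IDH1mt against PCDH, C269S against PCDH and C269S against IDH1mt. The part of these markers in the results was not tested. In bulk samples, fewer cells that express a gene and less RNA per cell cannot be told apart.

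edgeR's quasi-likelihood F test was applied to all 16874 genes that passed a filter on low counts, and a gene was called at a Benjamini-Hochberg adjusted p under 0.05 over all of them. All adjusted p-values below come from this test unless another fit is named. Where a call is said to be lost, the alternatives listed leave out the fit with a replicate block, whose losses are given under how the results depend on the processing, while the range over all alternatives includes it. Levels of single genes are given in CPM scaled with TMM factors (trimmed mean of M values), and fold changes as log2 values with their standard error, SE. Separate cultures for the 3 libraries of a group are not stated, nor how many selected lines stand behind a construct, so a p-value covers only the spread among the libraries, which may be technical, and the construct and the selected line cannot be told apart. An exact two-sided permutation test of 3 libraries against 3 cannot go below p = 0.1.

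In IDH1mt against PCDH, 6 of the 46 tested genes rose and 10 fell, which is 34.8%, against 14.1% of all genes tested (7.18% higher and 6.9% lower). In C269S against PCDH, 2 rose and 3 fell, or 10.9% against 1.42% of all genes (0.883% higher and 0.533% lower). In C269S against IDH1mt, 7 rose and 1 fell, or 17.4% against 4.9% of all genes (2.29% higher and 2.61% lower). The libraries of the groups did not overlap in CPM for 24, 11 and 18 of the 46 genes in these comparisons, against 29.2%, 15.2% and 23.6% of all genes. The 46 genes had a median log2 fold change of 0.03 in IDH1mt against PCDH, 0.04 in C269S against PCDH and 0.05 in C269S against IDH1mt, beside -0.01, -0.01 and 0.00 for all genes. Scaling by library size alone moved the share of higher genes among all those called, from 51.0% to 35.2% in IDH1mt against PCDH and from 46.8% to 60.1% in C269S against IDH1mt. For the metalloprotease and TIMP genes that scaling gave 6 higher and 11 lower in the first of these and 10 higher and 1 lower in the second. In all, 19 genes were called at least once and 27 never, and the share of all genes called at least once was not computed. The comparisons share libraries, so their calls are not independent of each other.

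**Figure D2:**
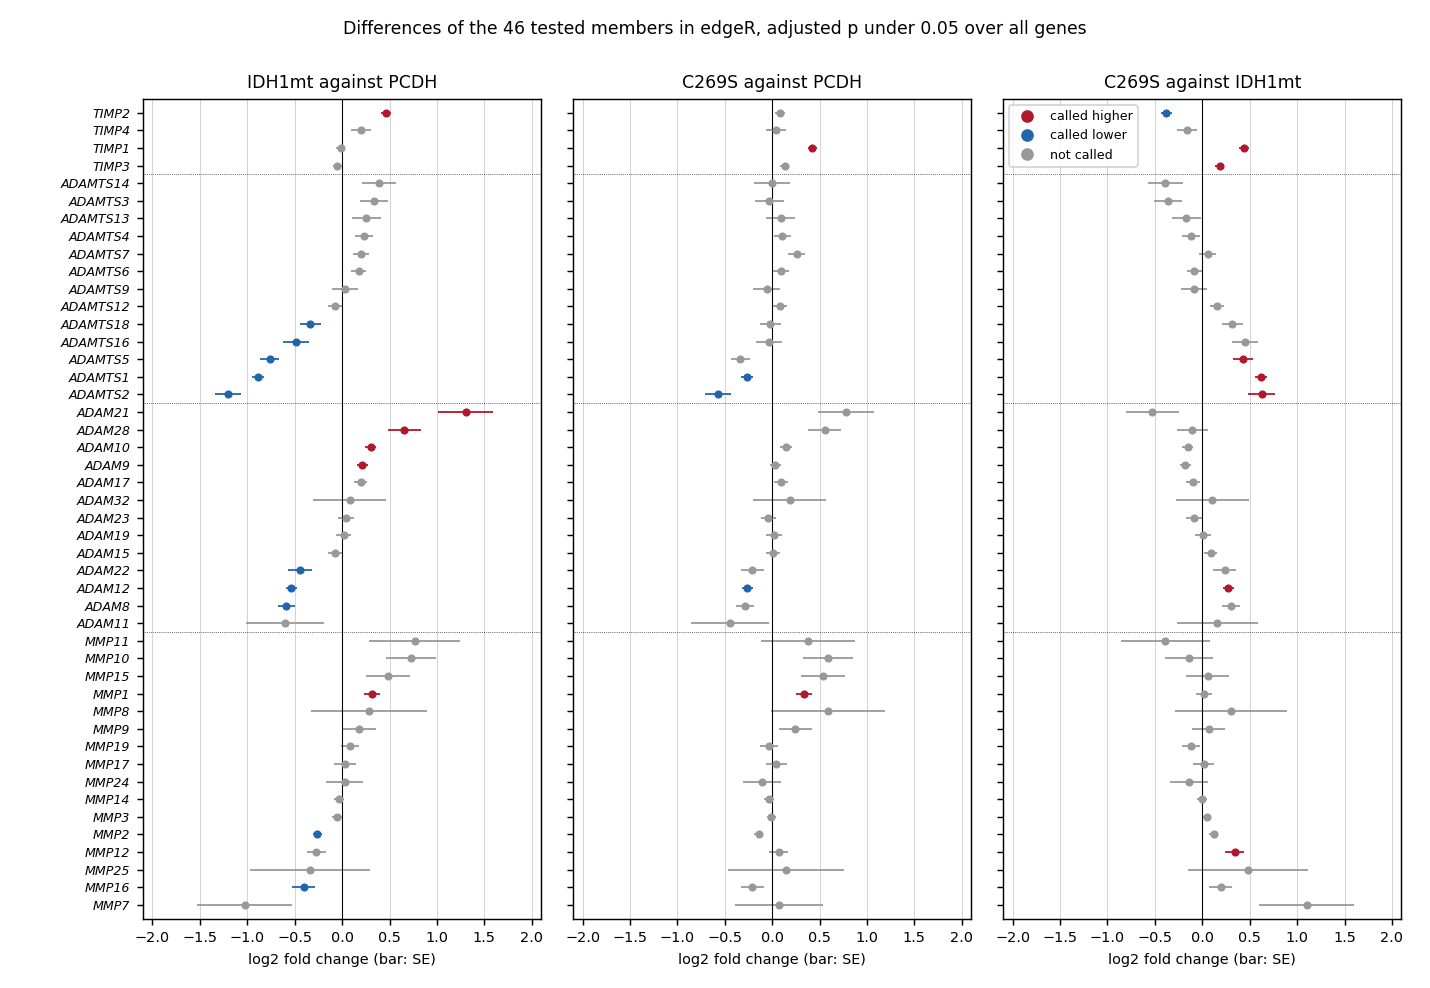
Log2 fold change of each tested gene in the 3 comparisons, with a bar of 1 SE either side, grouped by family and ordered by the value in IDH1mt against PCDH. Red and blue mark genes called higher and lower. In IDH1mt against PCDH the called ADAMTS genes lie to the left of 0, and TIMP1 is marked higher in both comparisons of C269S.

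TIMP1 rose in C269S, TIMP2 rose in IDH1mt, and TIMP3 was higher in C269S than in IDH1mt. TIMP1 (ENSG00000102265, chromosome X, 47582313 to 47586789 on GRCh38, as are all coordinates here), a soluble inhibitor of most MMPs, stood at 3164, 3062 and 3439 CPM in C269S, 2388, 2358 and 2378 CPM in IDH1mt and 2394, 2296 and 2509.9 CPM in PCDH. The 3 C269S libraries lay above all 6 others, while IDH1mt and PCDH overlapped. It rose 1.34-fold in C269S against PCDH (log2 fold change 0.42 with an SE of 0.05, adjusted p = 1.81e-06) and 1.36-fold in C269S against IDH1mt (log2 fold change 0.44 with an SE of 0.05, adjusted p = 2.29e-07). In IDH1mt against PCDH its log2 fold change was -0.02 (SE 0.05, adjusted p = 0.889). TIMP1 lies within the SYN1 gene on the opposite strand, and SYN1 had 15 to 65 counts per library. TIMP2 (ENSG00000035862, chromosome 17, 78852977 to 78925387) stood at 304, 292 and 294 CPM in C269S, 375, 398 and 384 CPM in IDH1mt and 301, 261 and 279 CPM in PCDH. Here the IDH1mt libraries were the ones above all others, and C269S and PCDH overlapped. TIMP2 rose 1.38-fold in IDH1mt against PCDH (log2 fold change 0.46 with an SE of 0.06, adjusted p = 3.23e-07) and was lower in C269S than in IDH1mt (log2 fold change -0.38 with an SE of 0.06, adjusted p = 2.43e-05). C269S against PCDH gave 0.08 on the log2 scale (SE 0.06, adjusted p = 0.598).

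TIMP3 (ENSG00000100234, chromosome 22, 32801701 to 32863043), which also inhibits several ADAM and ADAMTS enzymes, stood at 777, 792 and 796 CPM in C269S, 685, 718 and 683 CPM in IDH1mt and 755, 693 and 710.4 CPM in PCDH. All C269S libraries were above the rest by a small margin. It rose 1.13-fold in C269S against IDH1mt (log2 fold change 0.18 with an SE of 0.05, adjusted p = 0.0283), and its log2 fold changes in C269S against PCDH and in IDH1mt against PCDH were 0.13 and -0.05 (adjusted p = 0.227 and 0.58). This TIMP3 call did not hold on leaving out IDH1mt replicate 1 or 3 or C269S replicate 1 or 2 or 3 and in both FPKM fits (adjusted p from 0.0512 to 0.152 there, and from 0.00602 to 0.152 over all 18 alternatives). The FPKM fits apply limma to log2(FPKM + 1) or log2(FPKM + 0.1). TIMP4, whose level per length was far lower (11.6 FPKM against 1718 FPKM for TIMP1), averaged 18.7 ± 1.96 CPM in C269S, 20.9 ± 0.735 CPM in IDH1mt and 18.2 ± 1.36 CPM in PCDH and was not called, with adjusted p-values from 0.218 to 0.931. The level summed over the 4 TIMPs was 2312 ± 126 FPKM in C269S, 1763 ± 3.31 FPKM in IDH1mt and 1758 ± 73.3 FPKM in PCDH, and TIMP1 made up most of it.

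Of 13 tested ADAMTS genes, 5 fell in IDH1mt against PCDH and 8 did not pass. The 5 are 38.5%, against 14.1% of all genes called in either direction and 6.9% called lower. ADAMTS2 and ADAMTS1 fell in C269S against PCDH as well, and ADAMTS1, ADAMTS2 and ADAMTS5 were higher in C269S than in IDH1mt. ADAMTS1 (ENSG00000154734, chromosome 21, 26835747 to 26845409), which cuts the proteoglycans aggrecan and versican, stood at 154, 153 and 150.3 CPM in C269S, 94, 95.5 and 107 CPM in IDH1mt and 172, 185 and 190.5 CPM in PCDH. The 3 groups did not overlap, with C269S between the others. It fell in IDH1mt against PCDH (log2 fold change -0.88 with an SE of 0.06, adjusted p = 3.68e-12) and was 1.54-fold higher in C269S than in IDH1mt (log2 fold change 0.62 with an SE of 0.06, adjusted p = 2.29e-08). Its fall in C269S against PCDH (log2 fold change -0.26 with an SE of 0.06, adjusted p = 0.0205) was lost on leaving out PCDH replicate 2 or C269S replicate 1 or 2 or 3, with the 6 libraries alone and in both FPKM fits (adjusted p from 0.0512 to 0.145 there, and from 0.00653 to 0.145 over all 18 alternatives). ADAMTS5 (ENSG00000154736, chromosome 21, 26917912 to 26966513), another aggrecanase, is the next protein-coding gene to ADAMTS1 on chromosome 21, 72.5 kb away on the same strand. Its libraries held 18.3, 20.5 and 22.2 CPM in C269S, 14.6, 15.1 and 15.7 CPM in IDH1mt and 23.5, 25.5 and 28 CPM in PCDH. Again no groups overlapped and C269S lay in the middle. ADAMTS5 fell in IDH1mt against PCDH (log2 fold change -0.77 with an SE of 0.10, adjusted p = 2.30e-06), and C269S against PCDH gave -0.33 (SE 0.10, adjusted p = 0.105). Its rise in C269S against IDH1mt (log2 fold change 0.43 with an SE of 0.11, adjusted p = 0.0116) was lost on leaving out IDH1mt replicate 1 or 2 or C269S replicate 3 and in both FPKM fits (adjusted p from 0.0508 to 0.108 there, and from 0.00316 to 0.108 over all 18 alternatives).

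ADAMTS2 (ENSG00000087116, chromosome 5, 179110851 to 179345430), which removes the amino-terminal propeptide of procollagens, had the lowest log2 fold change of the called genes in IDH1mt against PCDH. It stood at 12.7, 11.2 and 9.83 CPM in C269S, 8.5, 6.92 and 6.32 CPM in IDH1mt and 15.5, 18.7 and 15.9 CPM in PCDH. The groups were separate and in the same order as for ADAMTS1. It fell in IDH1mt (log2 fold change -1.20 with an SE of 0.14, adjusted p = 1.10e-07) and in C269S (log2 fold change -0.57 with an SE of 0.13, adjusted p = 0.0182) against PCDH, and it was 1.55-fold higher in C269S than in IDH1mt (log2 fold change 0.63 with an SE of 0.14, adjusted p = 0.00521). The call in C269S against PCDH was lost on leaving out PCDH replicate 2 or C269S replicate 2 or 3 and in both FPKM fits (adjusted p from 0.0881 to 0.219 there, and from 0.00336 to 0.219 over all 18 alternatives). The call in C269S against IDH1mt was lost on leaving out IDH1mt replicate 3 or C269S replicate 1 and in both FPKM fits (adjusted p from 0.0534 to 0.109 there, and from 5.19e-04 to 0.109 over all 18 alternatives). The other procollagen N-proteinases, ADAMTS3 and ADAMTS14, averaged 7.41 ± 0.747 CPM in C269S, 9.52 ± 0.197 CPM in IDH1mt and 7.54 ± 1.17 CPM in PCDH and 5.31 ± 1.06 CPM in C269S, 6.95 ± 0.722 CPM in IDH1mt and 5.31 ± 1.11 CPM in PCDH, and neither was called, with log2 fold changes of 0.33 and 0.39 in IDH1mt against PCDH (adjusted p = 0.14 and 0.173).

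ADAMTS16 averaged 11.9 ± 1.42 CPM in C269S, 8.72 ± 1.14 CPM in IDH1mt and 12.3 ± 1.35 CPM in PCDH and ADAMTS18 18.6 ± 1.67 CPM in C269S, 15 ± 1.73 CPM in IDH1mt and 18.9 ± 1.17 CPM in PCDH. Both fell in IDH1mt against PCDH (log2 fold change -0.48 with an SE of 0.14, adjusted p = 0.0151 for ADAMTS16, and log2 fold change -0.34 with an SE of 0.11, adjusted p = 0.040 for ADAMTS18). The ADAMTS16 call was lost on leaving out PCDH replicate 1 or IDH1mt replicate 1 or 3 and in both FPKM fits (adjusted p from 0.0503 to 0.10 there, and from 0.00737 to 0.10 over all 18 alternatives). For ADAMTS18 it was lost on leaving out PCDH replicate 1 or 2 or IDH1mt replicate 1 or 3 or C269S replicate 1, with the 6 libraries alone and in both FPKM fits (adjusted p from 0.0521 to 0.224 there, and from 0.0156 to 0.224 over all 18 alternatives). In C269S against IDH1mt ADAMTS16 did not pass (adjusted p = 0.0527) but was called on leaving out PCDH replicate 2 or 3 or IDH1mt replicate 2 or C269S replicate 2, with library size alone, with no low-count filter and with the 6 libraries alone (adjusted p from 0.0268 to 0.0493 there, and from 0.0268 to 0.251 over all 18 alternatives). Among the ADAMTS genes never called, the 4 with the highest level per length were ADAMTS12, ADAMTS6, ADAMTS7 and ADAMTS4, with means of 6.17, 6.07, 6.07 and 2.63 FPKM. ADAMTS4 is an aggrecanase like ADAMTS5, and its log2 fold change in IDH1mt against PCDH was 0.23 (SE 0.09, adjusted p = 0.10). ADAMTS7 overlaps MORF4L1 on the opposite strand, which had more reads. No source used here gives the strand setting, so reads in a stretch that a gene shares with one on the other strand cannot be told apart. By whole gene spans, introns included, 14 of the 19 called genes have such a partner, and the share over all genes was not computed. Relative to the called gene, the partner of ADAMTS18 had the most reads, at 10.2% of its mean count. For TIMP1 the partner stood at 0.062%. ADAMTS9 and ADAMTS13 were the others tested and not called.

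**Figure D3:**
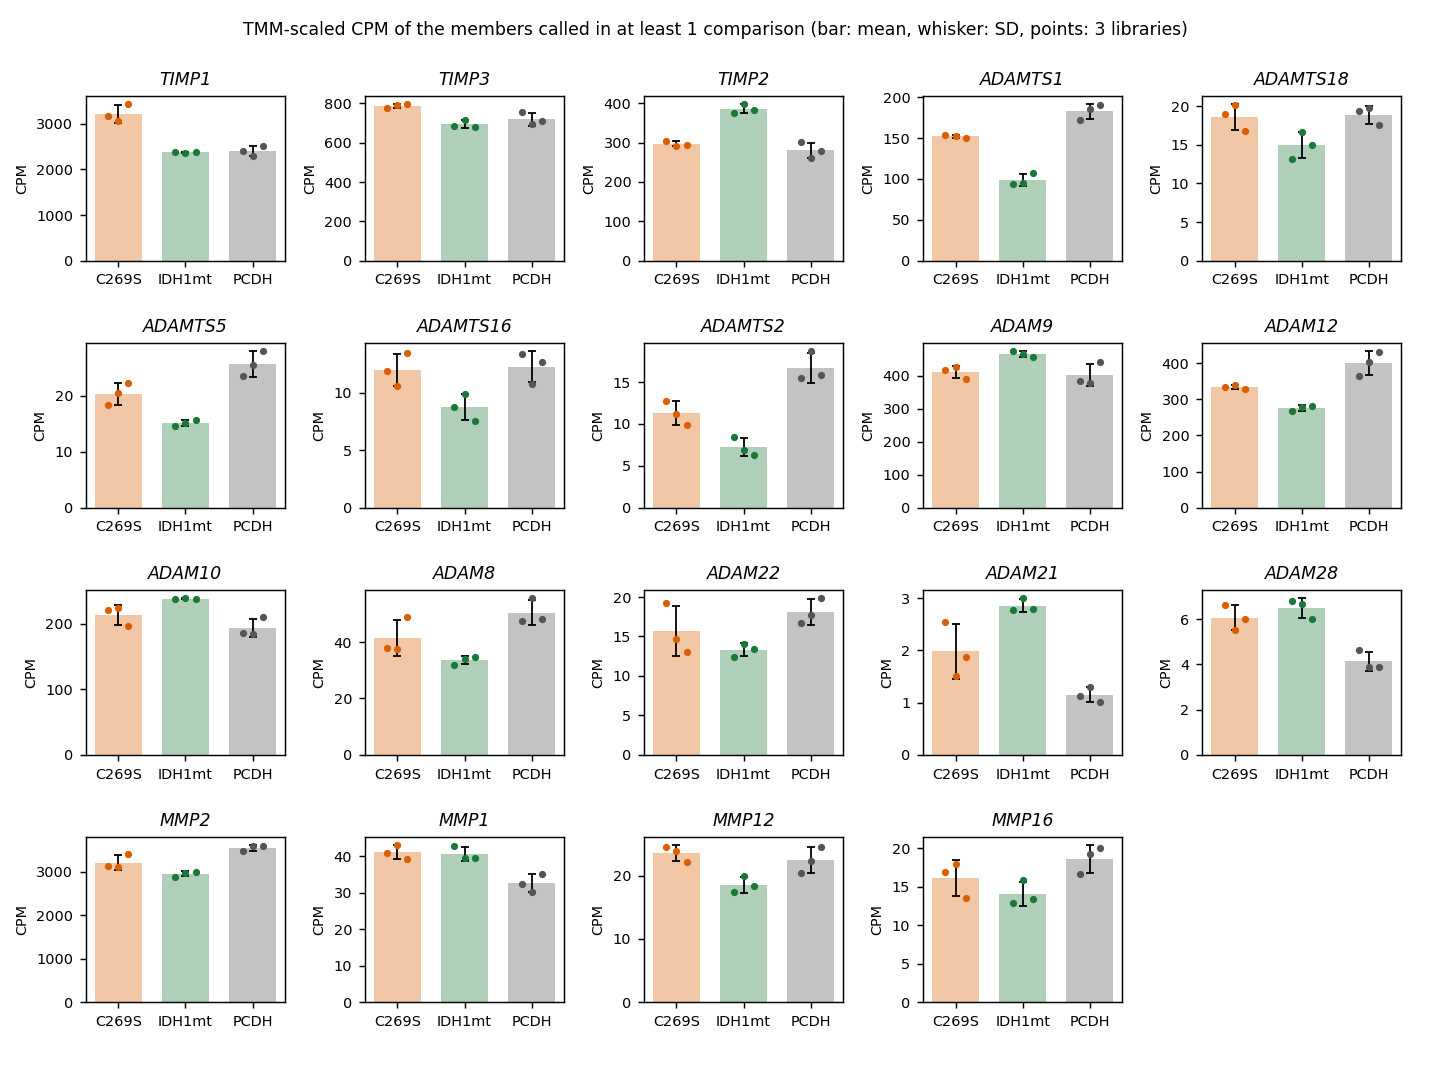
TMM-scaled CPM of the 19 genes called in at least 1 comparison, with C269S, IDH1mt and PCDH from left to right, bars for the mean, whiskers for the SD and points for the 3 libraries. TIMP1 is highest in C269S and TIMP2 in IDH1mt, and ADAMTS1, ADAMTS2, ADAMTS5 and ADAM12 are lowest in IDH1mt with C269S between it and PCDH.

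Among 13 tested ADAMs, 4 rose and 3 fell in IDH1mt against PCDH, or 53.8% against 14.1% of all genes. ADAM12 was the 1 ADAM called in either comparison of C269S, or 7.69% against 1.42% of all genes relative to PCDH and 4.9% relative to IDH1mt. ADAM12 (ENSG00000148848, chromosome 10, 126012381 to 126388455), a membrane or secreted protease that can release heparin-binding EGF, stood at 334, 339.8 and 328 CPM in C269S, 266, 279 and 282 CPM in IDH1mt and 365, 404 and 432 CPM in PCDH. Each IDH1mt library was below each C269S library, and these were below all PCDH libraries. ADAM12 fell in IDH1mt against PCDH (log2 fold change -0.54 with an SE of 0.06, adjusted p = 3.10e-08) and was 1.21-fold higher in C269S than in IDH1mt (log2 fold change 0.28 with an SE of 0.06, adjusted p = 0.00261). The ADAM12 call in C269S against IDH1mt was lost in the FPKM fit with 1 added (with adjusted p = 0.0505, and a range from 5.66e-05 to 0.0505 over all 18 alternatives). Its fall in C269S against PCDH (log2 fold change -0.26 with an SE of 0.06, adjusted p = 0.0116) was lost on leaving out PCDH replicate 2 or C269S replicate 1, with the 6 libraries alone and in both FPKM fits (adjusted p from 0.0503 to 0.145 there, and from 0.00207 to 0.145 over all 18 alternatives).

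ADAM8 (ENSG00000151651, chromosome 10, 133262403 to 133276868), a protease of leukocytes that many tumour cells also make, stood at 37.8, 37.5 and 48.8 CPM in C269S, 32, 34.1 and 34.7 CPM in IDH1mt and 47.5, 55.6 and 48.2 CPM in PCDH. The IDH1mt libraries were lowest, and C269S and PCDH overlapped through 1 C269S library. ADAM8 fell in IDH1mt against PCDH (log2 fold change -0.59 with an SE of 0.09, adjusted p = 2.67e-05). In C269S against PCDH it did not pass (adjusted p = 0.132) but was called lower on leaving out PCDH replicate 3 or C269S replicate 3 (with adjusted p = 0.0331 and 0.0125, and a range from 0.0125 to 0.508 over all 18 alternatives). In C269S against IDH1mt it missed the threshold as well (adjusted p = 0.0572) and was called higher on leaving out PCDH replicate 3 or C269S replicate 2, with library size alone, with no low-count filter and with the 6 libraries alone (adjusted p from 0.0146 to 0.0426 there, and from 0.0146 to 0.419 over all 18 alternatives). ADAM22, which has no catalytic activity and binds the secreted protein LGI1, averaged 15.7 ± 3.15 CPM in C269S, 13.3 ± 0.822 CPM in IDH1mt and 18.1 ± 1.6 CPM in PCDH. It fell in IDH1mt against PCDH (log2 fold change -0.45 with an SE of 0.12, adjusted p = 0.0134). The ADAM22 call was lost on leaving out IDH1mt replicate 1 and in both FPKM fits (with adjusted p = 0.0786, 0.141 and 0.144, and a range from 0.00337 to 0.144 over all 18 alternatives). The related ADAM23, likewise without catalytic activity, averaged 42.5 ± 4.08 CPM in C269S, 45 ± 3.37 CPM in IDH1mt and 43.7 ± 1.58 CPM in PCDH and had log2 fold changes from -0.08 to 0.04 over the comparisons, none of them called.

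ADAM10 (ENSG00000137845, chromosome 15, 58588807 to 58749978), the sheddase of Notch receptors and N-cadherin, stood at 220.4, 224 and 196 CPM in C269S, 237, 239 and 238 CPM in IDH1mt and 186, 184 and 209 CPM in PCDH. IDH1mt libraries were above all others, and C269S overlapped PCDH. It rose 1.23-fold in IDH1mt against PCDH (log2 fold change 0.30 with an SE of 0.06, adjusted p = 7.50e-04). The log2 fold change in C269S against PCDH was 0.15 (adjusted p = 0.314), which was called on leaving out PCDH replicate 3 (with adjusted p = 0.0245, and a range from 0.0245 to 0.718 over all 18 alternatives). ADAM9, a sheddase that was the highest ADAM per length, stood at 416, 424 and 391 CPM in C269S, 474, 466 and 457 CPM in IDH1mt and 384, 379 and 441 CPM in PCDH. It rose 1.16-fold in IDH1mt against PCDH (log2 fold change 0.21 with an SE of 0.06, adjusted p = 0.00996). The ADAM9 call was lost on leaving out PCDH replicate 1 or 2 or IDH1mt replicate 1 (with adjusted p = 0.0656, 0.0742 and 0.0585, and a range from 4.93e-05 to 0.0742 over all 18 alternatives). C269S against IDH1mt gave -0.18 (adjusted p = 0.0636), called lower on leaving out PCDH replicate 3, with the 1 CPM filter and with the 6 libraries alone (with adjusted p = 0.00878, 0.0491 and 0.00927, and a range from 0.00878 to 0.239 over all 18 alternatives). ADAM17, which releases tumour necrosis factor and several EGF receptor ligands, averaged 67.8 ± 2.4 CPM in C269S, 72.7 ± 3.6 CPM in IDH1mt and 63.5 ± 4.68 CPM in PCDH and was not called, with a log2 fold change of 0.19 in IDH1mt against PCDH (SE 0.07, adjusted p = 0.0686).

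A pair of ADAMs with low counts also rose in IDH1mt. ADAM28 averaged 6.06 ± 0.558 CPM in C269S, 6.5 ± 0.434 CPM in IDH1mt and 4.13 ± 0.422 CPM in PCDH and rose 1.58-fold in IDH1mt against PCDH (log2 fold change 0.66 with an SE of 0.17, adjusted p = 0.00828). The ADAM28 call was lost in both FPKM fits (with adjusted p = 0.0525 and 0.0687, and a range from 0.0049 to 0.0687 over all 18 alternatives). ADAM21, a gene known mainly from testis, stood at 2.55, 1.52 and 1.88 CPM in C269S, 2.78, 3.01 and 2.79 CPM in IDH1mt and 1.13, 1.31 and 1.02 CPM in PCDH, from 23 to 73 reads per library. The IDH1mt libraries were all above the C269S libraries, and these were all above PCDH. ADAM21 rose 2.47-fold in IDH1mt against PCDH (log2 fold change 1.30 with an SE of 0.29, adjusted p = 0.00187), and C269S against PCDH gave 0.78 (SE 0.30, adjusted p = 0.235). Whether some reads of ADAM21 come from near copies was not tested. The pseudogene ADAM20P1 overlaps ADAM21 on the opposite strand with up to 14 counts. ADAM15 and ADAM19, with 11.2 and 4.03 FPKM, were among the ADAMs never called, with ADAM23, ADAM17, ADAM11 and ADAM32.

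Of 16 tested MMPs, 1 rose and 2 fell in IDH1mt against PCDH, or 18.8%, near the 14.1% of all genes, and the most abundant MMPs apart from MMP2 were not called. MMP2 (ENSG00000087245, chromosome 16, 55389700 to 55506691), which degrades gelatin and the collagen of basement membranes, stood at 3125, 3097 and 3394 CPM in C269S, 2886, 2974 and 2992 CPM in IDH1mt and 3465, 3581 and 3578 CPM in PCDH. PCDH libraries were highest, IDH1mt libraries were lowest and C269S lay between without overlap. MMP2 fell in IDH1mt against PCDH (log2 fold change -0.26 with an SE of 0.05, adjusted p = 1.69e-04). C269S against PCDH gave -0.14 (adjusted p = 0.143), which was called on leaving out C269S replicate 3 (with adjusted p = 0.0433, and a range from 0.0433 to 0.495 over all 18 alternatives), and C269S against IDH1mt gave 0.12 (adjusted p = 0.172), called with library size alone (with adjusted p = 0.0442, and a range from 0.0442 to 0.48 over all 18 alternatives). MMP14, the membrane protease that activates the MMP2 precursor, averaged 933 ± 42.6 CPM in C269S, 934 ± 25.3 CPM in IDH1mt and 954 ± 42 CPM in PCDH. Its log2 fold changes were -0.03 in IDH1mt against PCDH, -0.03 in C269S against PCDH and -0.0024 in C269S against IDH1mt (SE at most 0.05, adjusted p = 0.77, 0.866 and 0.99). MMP16, also membrane-bound, averaged 16.1 ± 2.31 CPM in C269S, 14 ± 1.59 CPM in IDH1mt and 18.6 ± 1.79 CPM in PCDH and fell in IDH1mt against PCDH (log2 fold change -0.40 with an SE of 0.12, adjusted p = 0.021). The MMP16 call was lost on leaving out PCDH replicate 2 or IDH1mt replicate 1 or 3 and in both FPKM fits (adjusted p from 0.0736 to 0.162 there, and from 0.00894 to 0.162 over all 18 alternatives).

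MMP1 (ENSG00000196611, chromosome 11, 102789920 to 102798160), the interstitial collagenase, was the 1 gene of the 65 that rose in both constructs against PCDH. It stood at 41, 43.1 and 39.3 CPM in C269S, 42.8, 39.4 and 39.6 CPM in IDH1mt and 32.5, 30.2 and 35.3 CPM in PCDH. All libraries of C269S and IDH1mt were above those of PCDH, and C269S and IDH1mt overlapped. MMP1 rose 1.24-fold in IDH1mt (log2 fold change 0.31 with an SE of 0.08, adjusted p = 0.00874) and 1.26-fold in the C269S libraries (log2 fold change 0.33 with an SE of 0.08, adjusted p = 0.0323). The call in IDH1mt was lost on leaving out PCDH replicate 2 or IDH1mt replicate 1 (with adjusted p = 0.0661 and 0.0684, and a range from 0.00115 to 0.0684 over all 18 alternatives). That in C269S was lost on leaving out PCDH replicate 1 or 2 or IDH1mt replicate 3 or C269S replicate 1 or 2, with the 6 libraries alone and in both FPKM fits (adjusted p from 0.055 to 0.206 there, and from 0.00293 to 0.206 over all 18 alternatives). The pseudogene WTAPP1 overlaps MMP1, MMP3 and MMP10 on the opposite strand, with 47 to 71 counts per library.

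MMP1 belongs to a run of 9 MMP genes on chromosome 11 (102520508 to 102955734), with no other protein-coding gene inside its 435 kb. In order they are MMP7, MMP20, MMP27, MMP8, MMP10, MMP1, MMP3, MMP12 and MMP13, and 6 of them were tested. Of these 6, MMP1 was called in IDH1mt and in C269S against PCDH, and MMP12 in C269S against IDH1mt. Of all genes, 14.1%, 1.42% and 4.9% were called in these comparisons, in that order. MMP3, next to MMP1 and much higher per length, averaged 1686 ± 42.2 CPM in C269S, 1633 ± 37.4 CPM in IDH1mt and 1696 ± 90.3 CPM in PCDH and had log2 fold changes of -0.06 in IDH1mt against PCDH and -0.01 in C269S against PCDH (adjusted p = 0.524 and 0.97). MMP10, stromelysin 2, stood at 2.76, 3.29 and 2.25 CPM in C269S, 3.75, 2.92 and 2.41 CPM in IDH1mt and 1.77, 1.6 and 2.13 CPM in PCDH. Its libraries in C269S and IDH1mt were all above those of PCDH, but it did not pass in IDH1mt against PCDH (log2 fold change 0.73 with an SE of 0.26, adjusted p = 0.0595) or in C269S against PCDH (log2 fold change 0.59 with an SE of 0.26, adjusted p = 0.353). MMP12, an elastase first described in macrophages, stood at 24.7, 24 and 22.2 CPM in C269S, 17.5, 19.97 and 18.3 CPM in IDH1mt and 20.5, 22.4 and 24.6 CPM in PCDH. C269S was above IDH1mt in every library and overlapped PCDH. It rose 1.27-fold in C269S against IDH1mt (log2 fold change 0.34 with an SE of 0.10, adjusted p = 0.0431). The MMP12 call was lost on leaving out IDH1mt replicate 1 or 2 or 3 or C269S replicate 1 or 2 and in both FPKM fits (adjusted p from 0.0561 to 0.209 there, and from 0.0166 to 0.209 over all 18 alternatives). IDH1mt against PCDH gave -0.27 for MMP12 (adjusted p = 0.067), called lower on leaving out PCDH replicate 1 and with library size alone (with adjusted p = 0.0452 and 0.0263, and a range from 0.0263 to 0.234 over all 18 alternatives). MMP7 and MMP8 averaged under 1 CPM in every group and were not called.

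MMP19, MMP17 and MMP9 averaged 5.91, 3.99 and 2.4 FPKM over the 9 libraries, and log2 fold changes for MMP9 ranged from 0.07 to 0.25 with an SE of at most 0.18. MMP11, MMP15, MMP24 and MMP25, at a mean of under 1 FPKM, completed the MMPs that were tested and not called. MMP10, MMP11, MMP19, MMP24 and MMP25 overlap genes on the opposite strand that had more reads on average.

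Genes that act on these proteases, or are cut by them, were counted from lists chosen with earlier results of these data known. Of 28 tested membrane proteins that ADAMs are known to shed, 10 rose and none fell in IDH1mt against PCDH (35.7%, against 14.1% of all genes), 3 rose in C269S against PCDH (10.7%, against 1.42%) and 2 fell in C269S against IDH1mt (7.14%, against 4.9%). Of those lower in IDH1mt than in PCDH, 0 were under an unadjusted p of 0.05 with edgeR or DESeq2. TGFA, a ligand of the EGF receptor, averaged 170.5 ± 10.3 CPM in C269S, 278 ± 13.2 CPM in IDH1mt and 122 ± 14.4 CPM in PCDH and rose in IDH1mt against PCDH (log2 fold change 1.18 with an SE of 0.07, adjusted p = 5.81e-14) and in C269S against PCDH (log2 fold change 0.48 with an SE of 0.07, adjusted p = 6.86e-05), and was lower in C269S than in IDH1mt (log2 fold change -0.71 with an SE of 0.07, adjusted p = 1.27e-08). APLP2, a relative of the amyloid precursor protein, and TNFRSF1B, a receptor of tumour necrosis factor, rose 1.3-fold and 1.27-fold in IDH1mt against PCDH (adjusted p = 1.12e-06 and 6.69e-05). APLP2 was lower in C269S than in IDH1mt (log2 fold change -0.26, adjusted p = 0.00103). CD44, the hyaluronan receptor, rose 1.25-fold in IDH1mt against PCDH (adjusted p = 4.49e-06), and 1.16-fold in C269S against PCDH (adjusted p = 0.0124). The CD44 call in that comparison was lost on leaving out PCDH replicate 1 or 2 or C269S replicate 1 or 2 and with the 6 libraries alone (adjusted p from 0.0503 to 0.0926 there, and from 4.38e-04 to 0.0926 over all 18 alternatives).

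Of 14 partners of ADAMs, 4 rose and none fell in IDH1mt against PCDH (28.6%, against 14.1% of all genes), none was called in C269S against PCDH (against 1.42%) and 2 fell in C269S against IDH1mt (14.3%, against 4.9%). In C269S against PCDH 1 of them was under an unadjusted p of 0.05 with edgeR, and DESeq2 and limma called 0 as well. RHBDF2, which carries ADAM17 to the cell surface, rose 1.31-fold in IDH1mt against PCDH (adjusted p = 0.00177) and was lower in C269S than in IDH1mt (log2 fold change -0.31, adjusted p = 0.0323). The RHBDF2 call there was lost on leaving out IDH1mt replicate 1 or 2 or C269S replicate 1 or 2, with library size alone and in both FPKM fits (adjusted p from 0.0564 to 0.22 there, and from 0.00794 to 0.22 over all 18 alternatives). SH3PXD2B, an adaptor of invadopodia, rose 1.23-fold in IDH1mt against PCDH (adjusted p = 9.28e-04). PDIA6, a disulfide isomerase, rose 1.13-fold in IDH1mt against PCDH (adjusted p = 0.0219). The PDIA6 call was lost on leaving out PCDH replicate 1 or 2 or IDH1mt replicate 1 or 2 or 3, with library size alone and with no low-count filter (adjusted p from 0.0512 to 0.12 there, and from 0.00389 to 0.12 over all 18 alternatives). TSPAN10, a tetraspanin that binds ADAM10, was lower in C269S than in IDH1mt (log2 fold change -0.52, adjusted p = 0.0219). The TSPAN10 call was lost on leaving out IDH1mt replicate 1 or 2 or 3 or C269S replicate 1 or 2 (adjusted p from 0.0589 to 0.117 there, and from 0.0098 to 0.117 over all 18 alternatives).

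**Figure D4:**
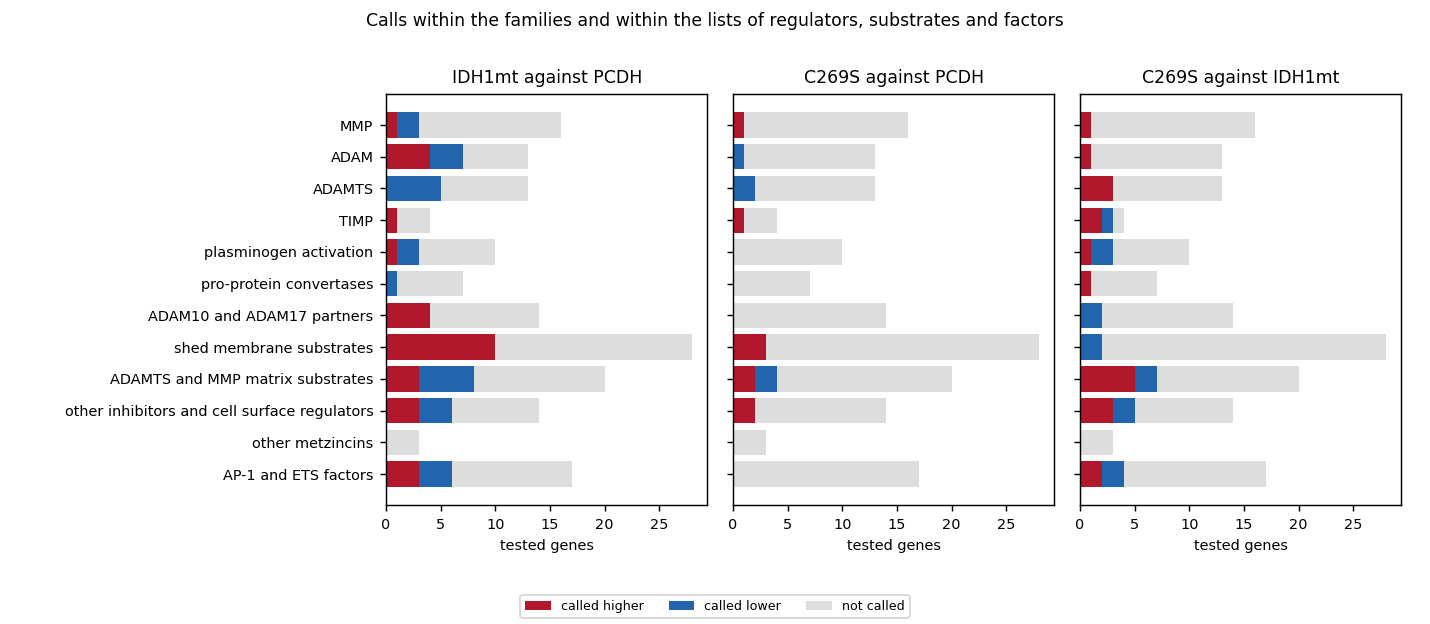
Number of tested genes called higher (red), called lower (blue) and not called (grey) in each family and in each list of partners, substrates, inhibitors and factors, for the 3 comparisons. In IDH1mt against PCDH the 5 called ADAMTS genes are lower, while the 10 called shed membrane proteins are higher.

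Among 20 tested matrix proteins cut by ADAMTS enzymes or MMPs, 3 rose and 5 fell in IDH1mt against PCDH (40%, against 14.1% of all genes), 2 rose and 2 fell in C269S against PCDH (20%, against 1.42%), and 5 rose and 2 fell in C269S against IDH1mt (35%, against 4.9%). In both FPKM fits the 5 higher genes became 2. The type I procollagen genes COL1A1 and COL1A2, whose products ADAMTS2 trims, fell in both constructs against PCDH. COL1A2 averaged 1601 ± 68.8 CPM in C269S, 1274 ± 41.5 CPM in IDH1mt and 2218 ± 56.4 CPM in PCDH, with log2 fold change -0.80, adjusted p = 1.29e-13 in IDH1mt against PCDH, and log2 fold change -0.47, adjusted p = 2.65e-07 in C269S against PCDH. It was higher in C269S than in IDH1mt (log2 fold change 0.33, adjusted p = 2.52e-05). COL1A1 averaged 1014 ± 63.8 CPM in C269S, 892 ± 28.8 CPM in IDH1mt and 1306 ± 52.5 CPM in PCDH, and its log2 fold change in C269S against IDH1mt of 0.19 (adjusted p = 0.0343) lost its call on leaving out IDH1mt replicate 1 or 2 or 3 or C269S replicate 2 or 3 and in both FPKM fits (adjusted p from 0.0524 to 0.213 there, and from 0.00663 to 0.213 over all 18 alternatives). LAMB3, a laminin chain, rose in IDH1mt against PCDH (log2 fold change 0.79, adjusted p = 4.96e-12) and in C269S against PCDH (log2 fold change 0.39, adjusted p = 7.11e-05). TNC, tenascin C, fell in IDH1mt against PCDH (log2 fold change -0.46, adjusted p = 1.28e-08) and was higher in C269S than in IDH1mt (log2 fold change 0.38, adjusted p = 1.20e-06). Among the ADAMTS1 and ADAMTS5 substrates, VCAN averaged 294 ± 16.9 CPM in C269S, 265 ± 10.3 CPM in IDH1mt and 274 ± 26.8 CPM in PCDH, with adjusted p-values of 0.683 in IDH1mt against PCDH and 0.208 in C269S against IDH1mt.

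Further inhibitors and surface regulators went both ways in IDH1mt against PCDH, where 3 of 14 rose and 3 fell (42.9%, against 14.1% of all genes). In C269S against PCDH 2 rose (14.3%, against 1.42%), and in C269S against IDH1mt 3 rose and 2 fell (35.7%, against 4.9%). RECK, a membrane-anchored inhibitor of MMPs, rose 1.36-fold in IDH1mt against PCDH (adjusted p = 4.24e-04). SPOCK1, a proteoglycan of the testican family, rose in IDH1mt against PCDH (log2 fold change 0.55, adjusted p = 4.88e-09) and in C269S against PCDH (log2 fold change 0.28, adjusted p = 0.00263). TFPI2, a protease inhibitor of the matrix, rose 1.33-fold in IDH1mt against PCDH (adjusted p = 1.42e-07) and 1.17-fold in C269S against PCDH (adjusted p = 0.0105). Its call in C269S against PCDH was lost on leaving out PCDH replicate 1 or 2 or C269S replicate 1 or 2 and in both FPKM fits (adjusted p from 0.0557 to 0.11 there, and from 8.94e-05 to 0.11 over all 18 alternatives). Both SPOCK1 and TFPI2 were lower in C269S than in IDH1mt (log2 fold change -0.27, adjusted p = 0.00156 for SPOCK1, and log2 fold change -0.19, adjusted p = 0.0133 for TFPI2). For TFPI2 that call was lost on leaving out IDH1mt replicate 1 or 2 or 3 or C269S replicate 3 and in both FPKM fits (adjusted p from 0.0526 to 0.0832 there, and from 0.00109 to 0.0832 over all 18 alternatives). THBS2, a thrombospondin that helps to clear MMP2, fell in IDH1mt against PCDH (log2 fold change -0.29, adjusted p = 0.00216) and was higher in C269S than in IDH1mt (log2 fold change 0.29, adjusted p = 0.00549). The THBS2 call there was lost on leaving out IDH1mt replicate 3 (with adjusted p = 0.060, and a range from 5.41e-04 to 0.060 over all 18 alternatives).

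Among genes of the plasminogen system, whose protease plasmin activates several MMP precursors, PLAU, urokinase, fell in IDH1mt against PCDH (log2 fold change -0.22, adjusted p = 0.00316). SERPINB2, an inhibitor of plasminogen activators, was higher in C269S than in IDH1mt (log2 fold change 0.37, adjusted p = 4.23e-04) and fell in IDH1mt against PCDH (log2 fold change -0.21, adjusted p = 0.0318). The SERPINB2 call in that comparison was lost on leaving out PCDH replicate 3 or IDH1mt replicate 1 or 3 and in both FPKM fits (adjusted p from 0.074 to 0.198 there, and from 0.00679 to 0.198 over all 18 alternatives). S100A10, a plasminogen receptor subunit, was lower in C269S than in IDH1mt (log2 fold change -0.21, adjusted p = 0.0289). The S100A10 call was lost on leaving out IDH1mt replicate 1 or 3 or C269S replicate 1 or 2, with library size alone and in both FPKM fits (adjusted p from 0.0646 to 0.237 there, and from 0.00322 to 0.237 over all 18 alternatives). Of 7 proprotein convertases, which cut the pro-domains of ADAMs and of membrane MMPs, PCSK1 was the 1 called, which is 14.3% and near the 14.1% of all genes in IDH1mt against PCDH. In C269S against IDH1mt PCSK1 was again the 1 called (14.3%, against 4.9% of all genes). In C269S against PCDH 0 were called (against 1.42%), and 0 were under an unadjusted p of 0.05 with edgeR. PCSK1 fell in IDH1mt against PCDH (log2 fold change -0.75, adjusted p = 0.00135) and was higher in C269S than in IDH1mt (log2 fold change 0.59, adjusted p = 0.0299). The PCSK1 call in that comparison was lost on leaving out IDH1mt replicate 1 or 3 or C269S replicate 2 or 3 and in both FPKM fits (adjusted p from 0.0918 to 0.192 there, and from 0.0159 to 0.192 over all 18 alternatives). FURIN, the convertase best known for ADAM and MMP14 precursors, averaged 285 ± 12.2 CPM in C269S, 272 ± 1.96 CPM in IDH1mt and 283 ± 11.1 CPM in PCDH and was not called. BMP1, PAPPA and PAPPA2, metzincins of other families, were not called with edgeR, DESeq2 or limma. With edgeR 1 of them was under an unadjusted p of 0.05 in IDH1mt against PCDH, 0 in C269S against PCDH and 1 in C269S against IDH1mt.

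Of 17 AP-1 and ETS transcription factors, families known to act on MMP and TIMP promoters, 3 rose and 3 fell in IDH1mt against PCDH (35.3%, against 14.1% of all genes), none was called in C269S against PCDH (against 1.42%), and 2 rose and 2 fell in C269S against IDH1mt (23.5%, against 4.9%). In C269S against PCDH 3 were under an unadjusted p of 0.05 with edgeR, DESeq2 called 1 and limma 0. JUN averaged 610.0 ± 32.5 CPM in C269S, 758 ± 18.3 CPM in IDH1mt and 609 ± 24.7 CPM in PCDH and rose in IDH1mt against PCDH (log2 fold change 0.32, adjusted p = 5.71e-05), as did ETS1 (log2 fold change 0.30, adjusted p = 5.16e-04). Both were lower in C269S than in IDH1mt (log2 fold change -0.31, adjusted p = 1.57e-04 for JUN, and log2 fold change -0.27, adjusted p = 0.00352 for ETS1). ETV1 fell in IDH1mt against PCDH (log2 fold change -0.54, adjusted p = 2.43e-06) and was higher in C269S than in IDH1mt (log2 fold change 0.47, adjusted p = 4.87e-05). ETS2 rose in IDH1mt against PCDH (log2 fold change 0.24, adjusted p = 0.00945). The ETS2 call was lost on leaving out IDH1mt replicate 3 (with adjusted p = 0.0633, and a range from 0.00131 to 0.0633 over all 18 alternatives).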

How the data were processed

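RNA was measured by bulk RNA sequencing in 9 libraries, per the labels. The authors deposited raw counts, whole numbers for each gene. Tools in the submitters' processing notes are HISAT2 2.0.5, featureCounts 1.5.0-p3, with GRCh38 and hg38. Annotation and strand setting are not given in the sources used here. FPKM values deposited by the authors equal counts over gene length and library total, times 1 factor per library between 0.969 and 1.02, a scaling by the authors whose origin is not given. Columns were matched to groups by name.

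Genes passing edgeR's filterByExpr (16874) were scaled by TMM and fitted with a mean per group over all 9 libraries (edgeR 4.0.16, robust quasi-likelihood, R 4.3.3). The SE is the absolute log2 fold change over the square root of F. Alternatives used DESeq2 1.42.0, limma 3.58.1, other scalings and filters, fewer libraries and a replicate block. The procedure was also run on counts simulated from the means and dispersions of these data, with independent libraries. That run cannot show whether the real libraries are independent, and no result here rests on it.

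The genes and lists were chosen with earlier results of these data known. Named were all members called at least once, up to 4 uncalled members per family by FPKM, and up to 4 genes per list by lowest adjusted p. FURIN, VCAN, ADAMTS3, ADAMTS14, MMP9, MMP10 and the genes of overlapping or marker lists were added after their values were seen. Libraries of a group differed by more than sampling noise (chi-square per degree of freedom 3.63 to 10.7). Some genes, and the list counts that rest on them, are not reported here.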

Additional observations from a re-analysis of the deposited data

How the results depend on the processing

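Of the 29 called differences of metalloprotease and TIMP genes, 13 kept their call under all 18 alternatives and 16 lost it under at least 1; none changed direction. In IDH1mt against PCDH, the 10 lower genes became 6 with limma on log2 of FPKM plus 1 or plus 0.1. In C269S against PCDH, the 2 higher genes became 1 with the 6 libraries alone, with the replicate block and in both FPKM fits, and the 3 lower genes became 1 with the 6 libraries alone and 0 in both FPKM fits, where 6 were under an unadjusted p of 0.05 with limma. In C269S against IDH1mt, the 7 higher genes became 2 and 3 in the FPKM fits with 1 and 0.1 added, and the 1 lower gene became 2 with the filter of at least 1 CPM in 3 libraries and with the 6 libraries alone. Leaving out each library in turn gave 4 to 9 higher and 6 to 10 lower in IDH1mt against PCDH, 1 to 3 higher and 0 to 4 lower in C269S against PCDH, and 4 to 9 higher and 1 to 2 lower in C269S against IDH1mt. Of all genes, 2375, 239 and 827 were called in the 3 comparisons, against 1582, 87 and 445 in the FPKM fit with 0.1 added, and 145 in C269S against PCDH with the 6 libraries alone. Leaving out each library gave 1617 to 3048, 103 to 903 and 450 to 1244, with each highest value without PCDH replicate 3. The cause of these shifts was not tested.

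The replicate numbers are shared between groups, but libraries with the same number did not deviate together (correlations of -0.09 to 0.06), and 7 of 18 pairings of a library with another group had their highest correlation at the same number. With the replicate block, 6 genes were higher and 10 lower in IDH1mt against PCDH, 1 and 2 in C269S against PCDH, and 5 and 1 in C269S against IDH1mt. Of all genes, 1987, 172 and 605 were then called. The block ended 8 of the named calls, with these adjusted p-values in edgeR: MMP1 0.0788 and ADAMTS1 0.0502 in C269S against PCDH, SERPINB2 0.0647 in IDH1mt against PCDH, and TIMP3 0.0571, MMP12 0.0739, RHBDF2 0.0702, COL1A1 0.0631 and S100A10 0.0589 in C269S against IDH1mt. Among the list counts, both FPKM fits also gave 1 in place of 3 lower AP-1 and ETS factors in IDH1mt against PCDH, 1 in place of 2 higher surface regulators in C269S against PCDH, and, in C269S against IDH1mt, 1 in place of 2 higher AP-1 and ETS factors, lower ADAM partners and lower surface regulators. Whether depth limits the calls of genes under 1 CPM was not tested. MMP7, under 1 CPM in every group, had a log2 fold change of 1.10 with an SE of 0.50 in C269S against IDH1mt (edgeR adjusted p = 0.256).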
